A study of Mus musculus with 6 samples.

Results

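The genes of the regulators of G protein signalling (RGS proteins) and of the subunits of heterotrimeric G proteins were followed in somatosensory cortex with and without MEF2C. Members were taken by gene symbol, as the numbered RGS genes and the genes of the Gα, Gβ and Gγ subunits, and 53 of the 21667 named genes were found. They comprise 20 RGS genes and 33 subunit genes, and 44 of them had enough reads to be tested. Tissue came from 3 *Mef2c* cKO mice (Mef2cfl/fl; Emx1-Cre) and 3 controls (Mef2cfl/fl without Cre), all adult males of a mixed SVeV-129 and C57BL/6J background. Both genotypes therefore carried the floxed *Mef2c* allele. Replicate 1 of each genotype was 14 weeks old and replicates 2 and 3 were 12 weeks old. Cre expressed from *Emx1* acts from embryonic stages in the excitatory lineage of cortex and hippocampus, including part of the glia. Cells of other origin, such as interneurons and microglia, are not targeted by it.

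A heterotrimeric G protein is an α subunit bound to a βγ pair. An activated receptor makes the α subunit exchange GDP for GTP, and the freed α and βγ subunits then act on adenylyl cyclases, phospholipase C β and ion channels. RGS proteins speed the hydrolysis of GTP by the α subunit, mostly of the Gi/o and Gq classes, and so shorten the signal. In cortex, *Rgs4* is a well known abundant neuronal RGS gene, and the R7 proteins work as partners of Gβ5 in neurons.

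Levels are given as CPM, the reads on a gene scaled to the total reads of the mouse, from read counts recovered from the deposited RPKM values. The deposited values themselves could not be compared between mice, because the length behind the value of a gene differed from table to table. For *Rgs4* the deposited RPKM was 14.5, 3894 and 126.6 in control replicates 1, 2 and 3, where the recovered reads were 20114, 31930 and 35445. The lengths implied by these pairs were 40720, 166 and 5431 bases. Total reads ranged from 19326365 in cKO replicate 2 to 54128334 in cKO replicate 3. The excitatory neuron marker *Slc17a7* stood at 1137 to 1289 CPM in the 6 mice. Of 10 excitatory neuron markers, 4 rose and 4 fell, the upper-layer genes *Cux2* (log2 fold change -1.74) and *Rorb* (-1.74) among the latter. *Mef2c* itself had more reads in the cKO, at 1325 ± 126 CPM against 791 ± 16.4 in controls (SD, n = 3). Reads were counted over the whole gene, so the removed part of *Mef2c* was not seen separately and this count does not check the genotype labels. In tissue RNA, fewer cells of a type and less RNA per cell cannot be told apart.

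RGS genes and subunit genes differed in how many passed the test. Of 17 tested RGS genes, 9 fell in the *Mef2c* cKO and 0 rose, by limma at a Benjamini-Hochberg adjusted p-value under 0.05 and an absolute log2 fold change above 0.3. Of 27 tested subunit genes, 0 fell and 1 rose, *Gnal*. Over all 14619 tested genes, 7.77% fell, 5.88% rose and 13.6% did either. Of the subunits, 2 had an adjusted p-value under 0.05, *Gnal* and *Gnai2*, and the change of *Gnai2* was under the cut-off. The median log2 fold change was -0.35 over the tested RGS genes, 0.10 over the tested subunits and 0.0079 over all tested genes. All 3 cKO values lay below all 3 control values for 10 RGS genes and 1 subunit gene, and above them for 0 RGS genes and 6 subunit genes. Over all tested genes 17.5% were separated downwards and 16.3% upwards, 33.8% in all. The difference between the RGS genes and the subunits was not tested as such.

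**Figure D1:**
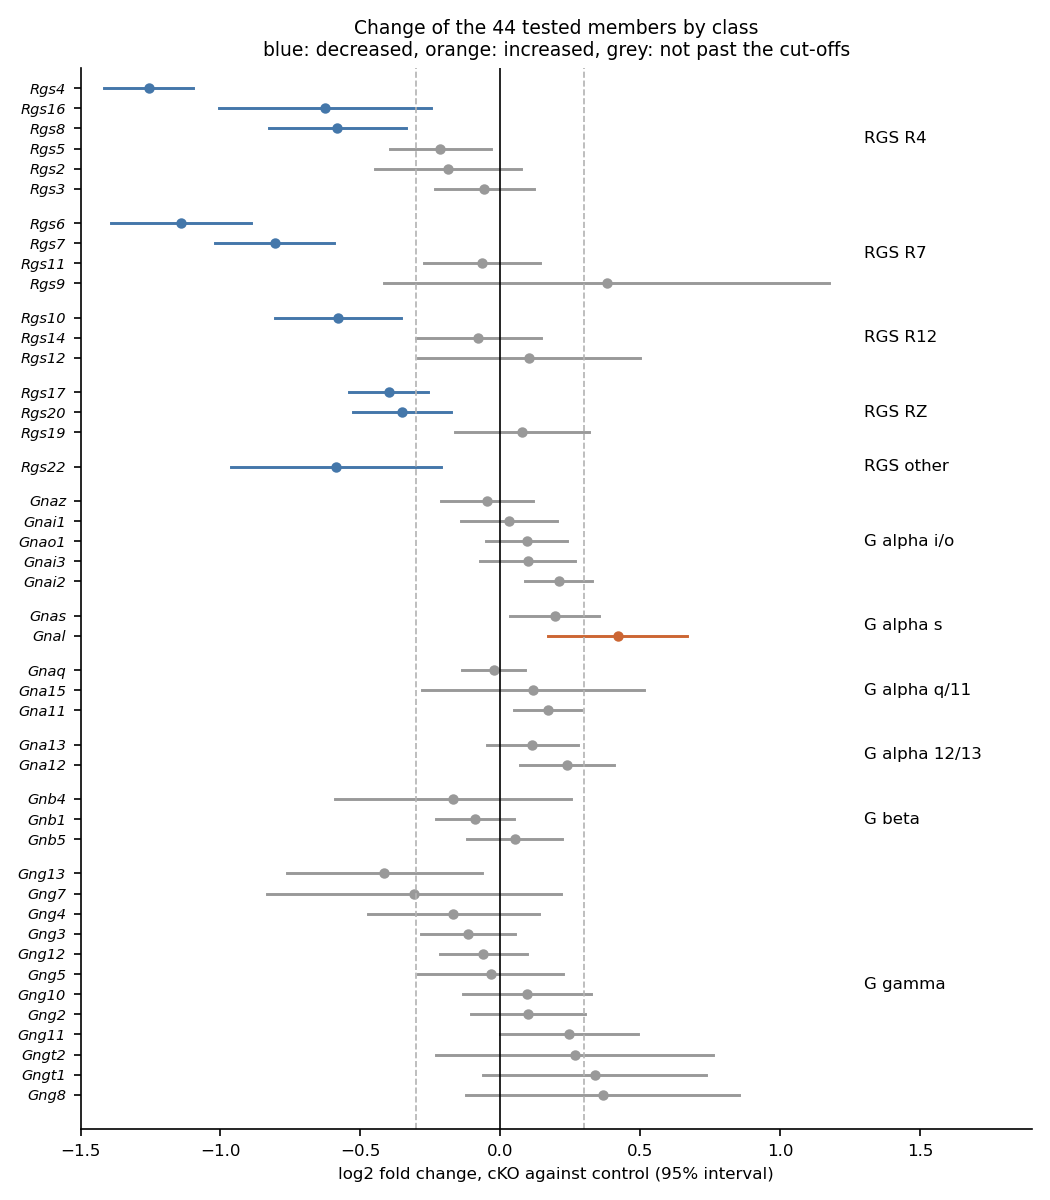
Log2 fold change (x axis, cKO against control, with its 95% interval) of the 44 tested members (y axis), grouped by class, with dashed lines at the cut-off of 0.3. The 9 decreased genes, in blue, are all RGS genes and spread over every RGS class, and the increased gene, in orange, is *Gnal*.

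The largest decrease was that of *Rgs4*, a member of the small R4 class that acts on Gαi/o and Gαq. *Rgs4* (chr1:171671608-171677773 in mm9, minus strand) stood at 591, 646 and 688 CPM in control replicates 1, 2 and 3. In the *Mef2c* cKO it stood at 253, 275 and 278 CPM, far below every control. Its log2 fold change was -1.26 (SE 0.07, adjusted p = 6.1e-06), a 2.39-fold decrease. Ordered from the most negative fold change, it ranked 211 of the 14619 tested genes. *Rgs4* was also the RGS gene with the highest level, at 207 CPM per kilobase of exon in controls and 86.7 in the cKO.

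*Rgs6* and *Rgs7*, both of the R7 class, whose proteins are stabilised by Gβ5, followed. *Rgs6* (chr12:83717912-84259755) was measured at 71.0, 84.0 and 94.8 CPM in controls and at 41.1, 37.9 and 33.6 CPM in the cKO. Its log2 fold change of -1.14 (SE 0.11, adjusted p = 0.00014) corresponds to a 2.21-fold decrease. *Rgs7* (chr1:176989867-177421261), a brain RGS gene, was measured at 118.8, 136.5 and 154.2 CPM in controls and 83.6, 74.5 and 75.0 CPM in the cKO. It fell 1.75-fold (log2 fold change -0.81, SE 0.09, adjusted p = 0.00040). For both genes the genotypes were well separated and the controls were more spread than the cKO mice. Per kilobase of exon, *Rgs7* ranked below *Rgs4* among the RGS genes, at 83.7 CPM in controls and 47.6 in the cKO, and *Rgs6* followed at 24.6 and 11.1.

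The promoters of these 3 genes, which had the 3 largest decreases among the members, are shown to give the sequence around their starts. They are the RefSeq windows of GRCm38.p6, from 250 bases before to 50 bases after the start, written on the strand of the gene. Capitals mark TATAAA, the core of a TATA box, and CGTCA, the short core of a cAMP response element, on either strand.
*Rgs4*, chr1:169747593-169747892, minus strand: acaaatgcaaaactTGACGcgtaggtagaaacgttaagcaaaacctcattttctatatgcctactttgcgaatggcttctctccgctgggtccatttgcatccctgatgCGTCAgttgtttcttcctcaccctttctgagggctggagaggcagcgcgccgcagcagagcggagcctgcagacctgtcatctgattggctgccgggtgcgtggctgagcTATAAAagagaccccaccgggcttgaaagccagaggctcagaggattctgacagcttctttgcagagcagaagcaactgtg
*Rgs6*, chr12:82617249-82617548, plus strand: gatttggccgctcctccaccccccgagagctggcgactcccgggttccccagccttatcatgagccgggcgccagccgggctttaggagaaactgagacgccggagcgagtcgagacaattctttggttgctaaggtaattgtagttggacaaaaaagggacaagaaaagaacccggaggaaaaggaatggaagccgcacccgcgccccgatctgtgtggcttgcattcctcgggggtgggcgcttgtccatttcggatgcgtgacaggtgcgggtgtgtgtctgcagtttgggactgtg
*Rgs7*, chr1:175492496-175492795, minus strand: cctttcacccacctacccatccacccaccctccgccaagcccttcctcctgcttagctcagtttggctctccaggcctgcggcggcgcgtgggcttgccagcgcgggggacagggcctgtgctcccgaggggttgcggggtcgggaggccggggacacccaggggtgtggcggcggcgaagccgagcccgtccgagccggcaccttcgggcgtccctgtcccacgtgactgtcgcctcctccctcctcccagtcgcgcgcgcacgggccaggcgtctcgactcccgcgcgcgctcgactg

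In *Rgs4* the TATAAA lies 31 to 26 bases before the start, and the 2 CGTCA matches begin 236 bases (on the reverse strand) and 141 bases before it. The windows of *Rgs6* and *Rgs7* hold neither motif. Of the 53 members, 39 had at least 1 window in the table, with 52 windows in all. TATAAA was found for 6 of these 39 members (*Gnas*, *Gnb5*, *Gngt1*, *Rgs3*, *Rgs4* and *Rgs9*) and in 13.6% of all 32851 windows. CGTCA was found for 10 members, *Rgs4* and *Rgs8* among the decreased ones, and in 20.8% of all windows. The MEF2 consensus, searched on both strands, was found for 0 of the 39 members and in 3.19% of all windows. At so low a share, 0 matches in 52 windows cannot show whether the members differ from other genes. Nor does it show that these genes lack MEF2 sites. The MEF2 consensus can overlap TATAAA, and CGTCA can overlap its own reverse complement. The counts of members are per gene, over at least 1 window each, and the shares are per window, so the 2 are not directly comparable. These matches describe letters in these windows only.

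Within the R4 class 3 of 6 tested genes fell. *Rgs8*, a neuronal R4 gene, stood at 81.9, 86.1 and 88.7 CPM in controls and at 58.7, 47.6 and 66.4 CPM in the cKO. The genotypes did not overlap, and its log2 fold change was -0.58 (SE 0.11, adjusted p = 0.0056). *Rgs16*, an inducible R4 gene, was low, at 7.73, 10.6 and 9.16 CPM in controls and 6.23, 4.71 and 6.87 CPM in the cKO. Its log2 fold change was -0.63 (SE 0.17, adjusted p = 0.033), with all 3 cKO mice below the controls by a small margin. The call of *Rgs16* was lost without control replicate 2 (-0.51, adjusted p = 0.118), control replicate 3 (-0.62, 0.0892), cKO replicate 1 (-0.67, 0.0624) or cKO replicate 2 (-0.47, 0.084), all by limma. *Rgs2*, which acts mainly on Gαq, averaged 38.8 ± 1.36 CPM in controls and 34.4 ± 5.78 in the cKO (log2 fold change -0.19, 95% interval -0.45 to 0.07). *Rgs5*, known from pericytes, averaged 24.9 ± 1.42 and 21.4 ± 1.14 CPM (-0.21, 95% interval -0.39 to -0.03, adjusted p = 0.110 by limma). Of 8 pericyte and smooth muscle markers 0 passed, and their summed level was 138.3 to 138.4 CPM in controls and 129.5 to 158.8 CPM in the cKO. *Rgs3* was tested and did not pass (-0.06).

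The decreased R4 genes lie near other R4 genes on chromosome 1. *Rgs8* (chr1:155500155-155544797) and *Rgs16* (chr1:155587479-155592598) are 42.7 kb apart, and both fell. *Rgs5* (chr1:171585632-171625944) and *Rgs4* are 45.7 kb apart in opposite orientation. Of that pair *Rgs4* fell (95% interval -1.41 to -1.10), and the 95% interval of *Rgs5*, from -0.39 to -0.03, lay nearer to 0.

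**Figure D2:**
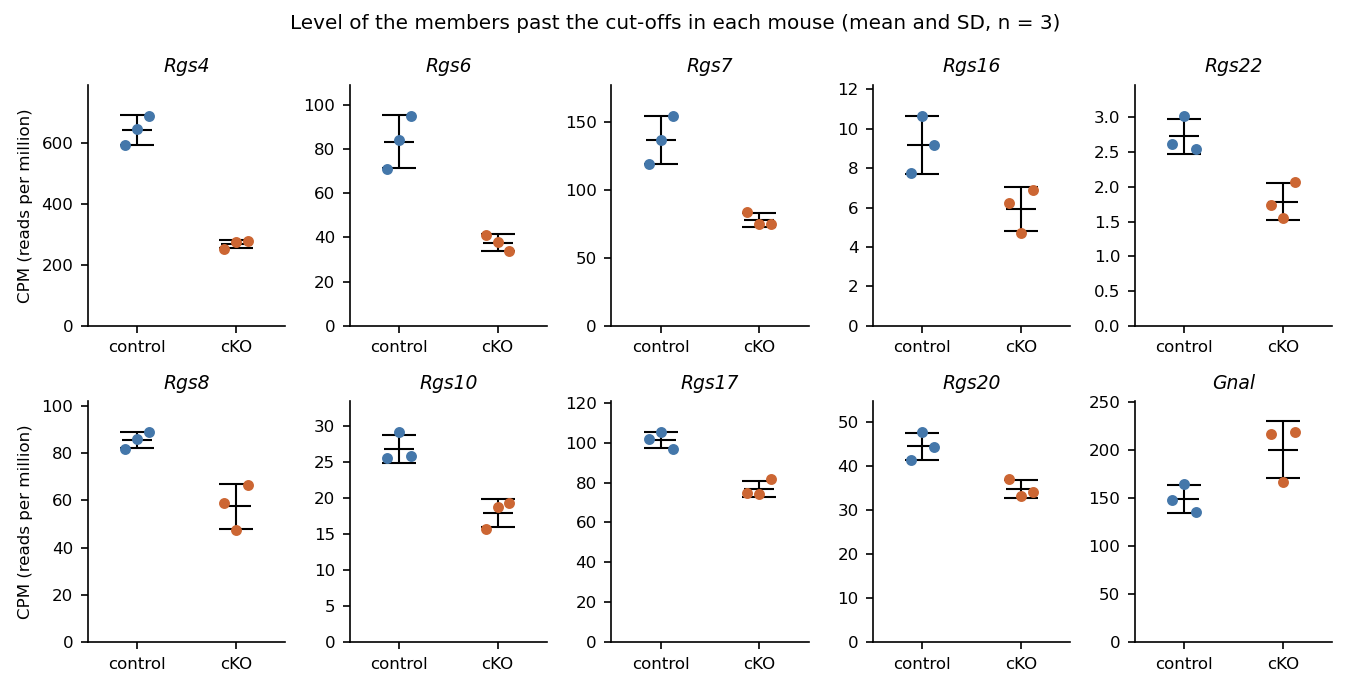
CPM (y axis, from 0) of the 10 members past the cut-offs in each mouse (points), with the mean and SD of each genotype (n = 3). The genotypes do not overlap in any panel, with the widest separation for *Rgs4*, *Rgs6* and *Rgs7* and the narrowest for *Gnal*.

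The remaining R7 genes did not pass. *Rgs11* averaged 44.2 ± 5.34 CPM in controls and 42.1 ± 1.86 CPM in the cKO (log2 fold change -0.07, 95% interval -0.27 to 0.14). *Rgs9*, the R7 gene of striatum and retina, varied most, at 27.8, 33.3 and 22.2 CPM in controls and 56.9, 18.1 and 44.01 CPM in the cKO. In cKO replicate 2 it was the lowest of all mice and in cKO replicates 1 and 3 the highest, which left a log2 fold change of 0.38 (95% interval -0.42 to 1.18). *Gnb5*, the Gβ partner of all R7 proteins, averaged 163 ± 5.81 and 169 ± 16.1 CPM (0.05, 95% interval -0.12 to 0.22). *Rgs7bp*, the membrane anchor of the R7 proteins, did not pass either (-0.08). *Gpr158*, an orphan receptor that binds RGS7, fell from 252 ± 15.3 to 176 ± 5.60 CPM (-0.52, SE 0.06, adjusted p = 0.00042).

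Of the R12 class only *Rgs10* fell. *Rgs10*, which acts on Gαi/o and is known from microglia as well as neurons, stood at 25.6, 29.1 and 25.8 CPM in controls and at 15.8, 18.8 and 19.3 CPM in the cKO. The log2 fold change was -0.58 (SE 0.10, adjusted p = 0.0037), and the genotypes did not overlap. Of 9 microglia markers 0 passed, and their summed level was 266.5 to 299.2 CPM in controls and 260.0 to 268.6 CPM in the cKO, with the part of microglia in *Rgs10* not tested. *Rgs14*, known from hippocampal CA2, averaged 20.5 ± 1.27 and 19.5 ± 2.13 CPM (-0.08, 95% interval -0.30 to 0.14). *Rgs12* averaged 52.1 ± 11.5 and 55.9 ± 11.8 CPM (0.10, 95% interval -0.29 to 0.50).

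In the RZ class, whose proteins act on Gαz and Gαi/o, 2 of 3 genes fell. *Rgs17* stood at 101.7, 105.0 and 96.9 CPM in controls and at 74.8, 74.0 and 81.5 CPM in the cKO. Its decrease was small and even, with a log2 fold change of -0.40 (SE 0.06, adjusted p = 0.0022). *Rgs20*, which prefers Gαz, stood at 41.4, 47.5 and 44.2 CPM in controls and at 37.1, 33.1 and 34.0 CPM in the cKO (log2 fold change -0.35, SE 0.08, adjusted p = 0.013). Its call was lost without control replicate 2 (-0.30, adjusted p = 0.054 by limma). *Rgs19* averaged 10.3 ± 1.01 and 10.8 ± 0.57 CPM (0.08, 95% interval -0.16 to 0.32). Their substrate gene *Gnaz* did not pass (-0.05). The last decreased gene, *Rgs22*, an RGS gene outside these classes, had few reads, at 2.62, 3.02 and 2.54 CPM in controls and 1.74, 1.55 and 2.07 CPM in the cKO (-0.59, SE 0.17, adjusted p = 0.041). The call of *Rgs22* was lost by limma whenever 1 mouse other than cKO replicate 3 was left out, at -0.61 without control replicate 1 (adjusted p = 0.0876), -0.51 without control replicate 2 (0.143), -0.63 without control replicate 3 (0.0796), -0.57 without cKO replicate 1 (0.102) and -0.50 without cKO replicate 2 (0.103).

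Summed over the 20 RGS genes, the level was 1283, 1420 and 1449 CPM in controls and 847, 783 and 875 CPM in the cKO. The cKO mean was 60.3% of the control mean. *Rgs4* made up 46.4 ± 0.98% of the RGS reads in controls and 32.2 ± 2.68% in the cKO. Without *Rgs4* the sum was 742 ± 44.1 CPM in controls and 566 ± 50.7 CPM in the cKO, or 76.3%. By class, the cKO mean of the summed reads was 50.4% of the control mean for R4, 67.5% for R7, 78.5% for RZ and 93.9% for R12. These sums count reads and are not scaled by transcript length.

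Some of the genes listed as markers of other regions and cell types moved with genotype as well. The summed thalamus markers were 126.9 to 161.2 CPM in controls and 82.8 to 91.8 CPM in the cKO. Of 6 tested genes 3 were lower, *Rora* (-1.14) among them, and 1 was higher, *Prkcd* (0.55). *Rora* held the largest part of that sum, at 71.7 ± 24.3 CPM in controls and 31.6 ± 4.89 CPM in the cKO. The summed oligodendrocyte markers were 3237 to 5314 CPM in controls and 5256 to 6752 CPM in the cKO, with 2 of 8 genes past the cut-offs, both higher. The summed hippocampus markers were 77.4 to 89.4 CPM in controls and 122.8 to 229.4 CPM in the cKO. Of 8 genes 3 were higher, *Spink8* (3.86) and *Wfs1* (1.18) among them, and 5 did not pass. *Wfs1* held the largest part of that sum, at 58.4 ± 7.11 CPM in controls and 138 ± 50.9 CPM in the cKO. Of 8 astrocyte markers 2 rose, *Gfap* (1.37) and *Aqp4* (0.73), and 1 fell, and of 10 interneuron markers *Pvalb* fell (-0.80) and 2 rose. Of 8 endothelial markers 0 passed, and of 5 tested choroid plexus markers 1 fell. Cells of cortex may also hold reads of genes listed under thalamus or hippocampus, *Rora* and *Wfs1* among them. The sums are therefore not read as amounts of RNA from those regions. The part of these markers' regions and cells in the levels of the RGS genes was not tested.

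**Figure D3:**
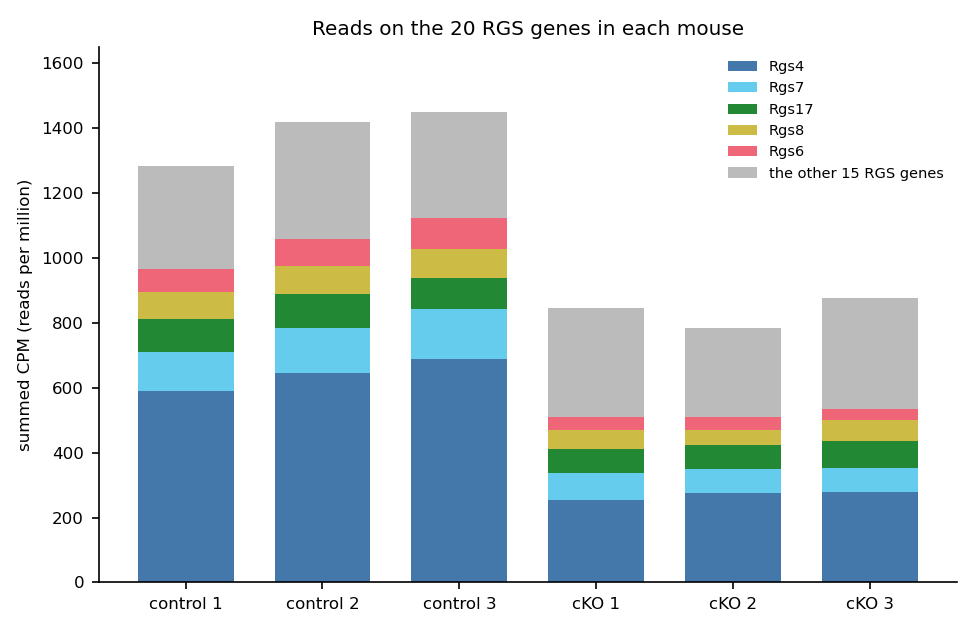
Summed CPM of the 20 RGS genes (y axis, from 0) in each mouse (x axis), split by gene. The 3 cKO bars end between 783 and 875 and the 3 control bars between 1283 and 1449, and the *Rgs4* segment shortens most.

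Of 12 tested Gα genes, 1 rose, 0 fell and 11 did not pass. Of 5 tested Gαi/o genes, which inhibit adenylyl cyclase, 0 passed. *Gnao1*, the most abundant Gα gene per kilobase of exon, averaged 830 ± 50.5 CPM in controls and 886 ± 30.7 CPM in the cKO (log2 fold change 0.09, 95% interval -0.05 to 0.24). *Gnai2* stood at 159, 158 and 160 CPM in controls and at 191, 176 and 184 CPM in the cKO. The genotypes of *Gnai2* did not overlap and its adjusted p-value was 0.028 by limma, but its log2 fold change of 0.21 was under the cut-off. *Gnai1* (0.03), *Gnai3* (0.10) and *Gnaz* were also tested. Of the Gαq/11 genes, which activate phospholipase C β, *Gnaq* averaged 251 ± 2.98 and 247 ± 5.99 CPM (-0.02, 95% interval -0.14 to 0.09), and *Gna11* 139 ± 4.63 and 156 ± 2.28 CPM (0.17, 95% interval 0.05 to 0.29, adjusted p = 0.060 by limma). *Gna12* and *Gna13*, which act on the cytoskeleton, had log2 fold changes of 0.24 (95% interval 0.07 to 0.41) and 0.11 (95% interval -0.05 to 0.28), and *Gna15* was tested and did not pass.

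Among the stimulatory Gα genes, *Gnal* rose. *Gnal* encodes Gαolf, which couples dopamine and adenosine receptors to adenylyl cyclase in striatum. It stood at 147.6, 164.3 and 135.4 CPM in controls and at 216.3, 166.4 and 217.9 CPM in the cKO, with cKO replicate 2 just above the highest control. The log2 fold change was 0.42 (SE 0.11, adjusted p = 0.031). The call of *Gnal* was lost, by limma, without control replicate 1 (0.41, adjusted p = 0.0848), control replicate 3 (0.35, 0.105), cKO replicate 1 (0.36, 0.104) or cKO replicate 3 (0.35, 0.0972). *Gnas*, which encodes Gαs and other transcripts of the same locus that were counted together, averaged 1176 ± 81.7 CPM in controls and 1344 ± 53.7 CPM in the cKO. Its cKO values lay above the controls, with a log2 fold change of 0.19 (95% interval 0.03 to 0.35, adjusted p = 0.104 by limma).

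The summed striatal markers varied between the cKO mice in the same order as *Rgs9*. The summed level of 12 striatal markers was 320, 379 and 294 CPM in controls and 587, 302 and 496 CPM in cKO replicates 1, 2 and 3. Of these markers, 2 rose (*Drd1* and *Penk*) and 0 fell. In cKO replicates 1, 2 and 3 *Drd1* stood at 69.5, 49.6 and 77.4 CPM and *Penk* at 105.3, 92.0 and 107.8 CPM. Both were thus highest in cKO replicate 3, unlike *Rgs9*, and above their control means of 19.8 and 41.4 CPM in every cKO mouse. *Adora2a*, a marker of striatal neurons, stood at 20.3, 1.35 and 14.1 CPM in the cKO mice. *Gng7*, the Gγ partner of Gαolf in striatum, stood at 85.5, 95.5 and 72.6 CPM in controls and at 90.7, 43.6 and 78.9 CPM in the cKO, and did not pass (-0.31). Without cKO replicate 2 the log2 fold change was 0.87 for *Rgs9* (adjusted p = 0.012, then past the cut-offs), 0.55 for *Gnal* (adjusted p = 0.0041) and 0.01 for *Gng7* (adjusted p = 0.97), all by limma. For *Rgs9* it was 0.04 without cKO replicate 1 (adjusted p = 0.957 by limma), 0.23 without cKO replicate 3 and 0.23 to 0.52 without any 1 control, none of which passed. The part of striatal RNA in the levels of these 3 genes was not tested.

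**Figure D4:**
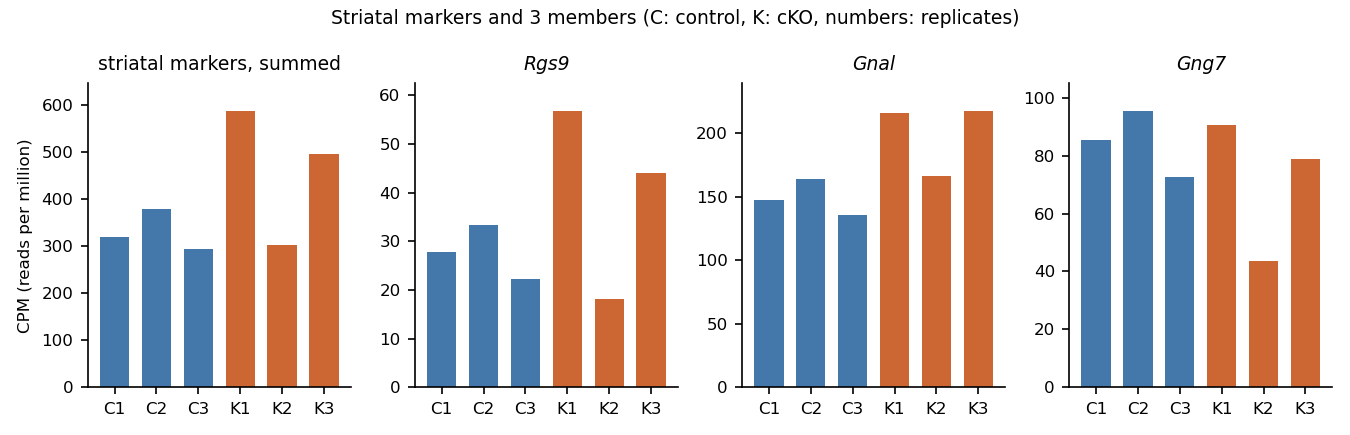
Summed CPM of 12 striatal markers and CPM of *Rgs9*, *Gnal* and *Gng7* (y axes, from 0) in each mouse (bars, control in blue, cKO in orange). In all 4 panels cKO replicate 2 has the lowest bar of the cKO mice.

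No Gβ or Gγ gene passed. *Gnb1*, the highest of the tested Gβ genes per kilobase of exon, averaged 785 ± 22.8 CPM in controls and 738 ± 39.1 CPM in the cKO (log2 fold change -0.09, 95% interval -0.23 to 0.05), and *Gnb4* was tested as well (-0.17). *Gnb2*, a gene that most cells use, was listed at 0 in all 6 mice. How it was counted is not given in the sources used here, so this 0 is not read as a low level. Of 12 tested Gγ genes, the neuronal *Gng3* averaged 196 ± 5.79 and 181 ± 17.5 CPM (-0.12, 95% interval -0.28 to 0.05), and *Gng2* 162 ± 20.6 and 173 ± 9.42 CPM (0.10, 95% interval -0.10 to 0.30). *Gng13* was the one Gγ gene with all cKO values below the controls, at 2.84, 2.54 and 3.47 CPM against 3.65, 4.21 and 3.96 CPM, with an adjusted p-value of 0.109 by limma (-0.41). *Gng11*, known from endothelium, was above the controls in all 3 cKO mice and did not pass (0.25). The others tested were *Gng4*, *Gng5*, *Gng8*, *Gng10*, *Gng12*, *Gngt1* and *Gngt2*. Apart from *Gnb2*, 8 members were below the filter on low values and were not tested: *Rgs1*, *Rgs13*, *Rgs18*, *Gna14*, *Gnb3* and the 3 transducins *Gnat1*, *Gnat2* and *Gnat3*, with 0 to 31 reads per mouse.

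**Figure D5:**
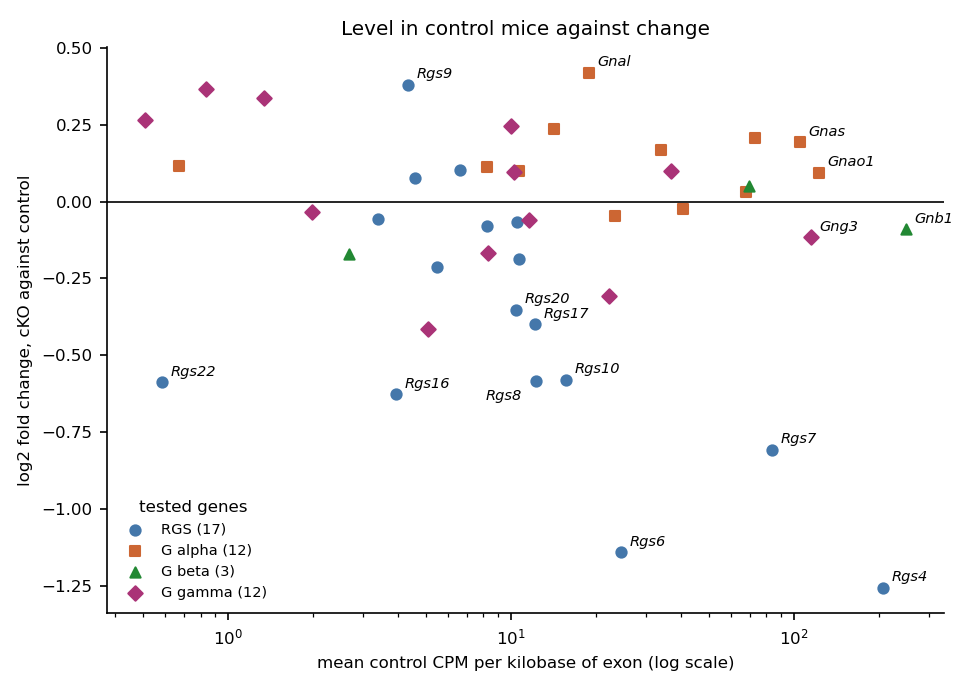
Mean control CPM per kilobase of exon (x axis, log scale) against the log2 fold change (y axis) of the 44 tested members, by family. *Rgs4*, at 207 CPM per kilobase, is the highest of the decreased genes, while *Gnb1*, *Gnao1*, *Gnas* and *Gng3* lie between -0.12 and 0.19.

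The other genes of the pathway were read from lists of regulators and effectors. Of 42 tested genes in 7 lists, 9 fell and 2 rose, with a median log2 fold change of -0.06. Over all tested genes the shares were 7.77%, 5.88% and, in either direction, 13.6%. That count was 7 without control replicate 1, 7 without control replicate 2 and 6 without cKO replicate 2, in place of 11. Among regulators, *Gpsm2*, which holds Gαi in its GDP form, fell by 0.32 on the log2 scale, *Snx25*, with an RGS-like domain, by 0.34 and the receptor kinase gene *Grk5* by 0.40. Among adenylyl cyclase genes 3 of 9 fell, *Adcy2* (-0.43), *Adcy7* (-0.90) and *Adcy8* (-0.52), and *Adcy9* rose (0.50). *Adcy2* went from 232 ± 5.62 to 173 ± 6.92 CPM and *Adcy9* from 86.6 ± 3.61 to 123 ± 8.06 CPM. *Plcb4*, 1 of 4 phospholipase C β genes, fell from 78.9 ± 4.67 to 56.4 ± 2.31 CPM (-0.48). *Plcb1* went from 394 ± 8.52 to 325 ± 7.01 CPM (adjusted p = 0.0055 by limma), but its log2 fold change of -0.28 was under the cut-off. *Adrbk1* (-0.25), *Gpsm1* (-0.25) and *Adcy3* (0.26) also had an adjusted p-value under 0.05 and a change under the cut-off. Of the tested GIRK channel genes, whose channels are opened by Gβγ, *Kcnj6* rose from 102 ± 7.52 to 134 ± 14.4 CPM (0.40) and *Kcnj9* fell from 199.9 ± 17.4 to 161 ± 9.98 CPM (-0.31). Arrestin genes did not pass, nor did the phosducin-like gene *Pdcl* and the chaperones *Ric8a* and *Ric8b*.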

How the data were processed

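The authors sequenced directional polyA libraries of somatosensory cortex from 6 mice, 3 of each genotype. Per the paper's methods and the submitters' processing notes, they aligned reads to mm9 with TopHat and Bowtie, counted them on UCSC genes with HTSeq and scaled them to RPKM; versions and the strand setting are not given in the sources used here. The deposited values are RPKM, 1 table of 21759 rows per mouse. The 92 rows without a gene name held 0.0528% to 0.0776% of the reads and were left out.

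Within each table the lengths behind the RPKM repeat in a short list, of 65 to 296 lengths, along the genes in the order of their Entrez IDs sorted as text. Sample totals and whole read counts were recovered from this pattern for 99.625% or more of the values above 0, and the counts summed to 99.976% or more of the totals. On 6 simulated tables built with this pattern every total was found, and 100% of the counts given were right. These simulated tables assumed the pattern, so they cannot show whether the deposited tables follow it.

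Counts divided by the total gave CPM. Genes with CPM above 0.5 in every mouse of at least 1 genotype and 2 or more recovered counts per genotype were compared on log2(CPM + 0.1), which understates changes of low genes, with limma 3.58.1 (lmFit, eBayes with a variance trend) in R 4.3.3. All fold changes, SE, intervals and adjusted p-values come from this fit unless another is named. In a simulation of 14511 genes with 200 changed, 3 against 3, it called 98% of the genes changed by 1 on the log2 scale, 79% of those changed by 0.5 and 8 unchanged genes.

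Exon lengths and mm9 coordinates are those of gencode vM1. Members past the cut-offs are named with each mouse's value, of the others the 2 highest per kilobase in each class with their means, and other pathway genes where they passed. Values by mouse of *Rgs9*, *Gnai2*, *Gng7* and *Gng13* and of marker genes are given outside this rule. Members, lists and tests were chosen with earlier results of these data known. Tables and plots were made with Python 3.11.15 and matplotlib 3.10.9.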

Additional observations from a re-analysis of the deposited data

How the results depend on the processing

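On the recovered counts, *Rgs4*, *Rgs6*, *Rgs7*, *Rgs8*, *Rgs10* and *Rgs17* kept their call under all 16 other settings (pseudocount, filter, scaling, limma without a trend, limma voom, age, replicate block, each mouse left out), with *Rgs4* between -1.31 and -1.20. The number of members past the cut-offs, 10, was 7 to 9 with 1 mouse left out (6 to 9 decreased) and 2 above an absolute log2 fold change of 1 (2 decreased). For the other pathway genes it was 11, and 6 to 10 with 1 mouse left out, 7 without the variance trend and 0 above a log2 fold change of 1. For the marker lists it was 26, and 19 to 29 with 1 mouse left out and 10 above a log2 fold change of 1. The log2 fold change of *Mef2c*, 0.74, was 0.66 to 0.79 with 1 mouse left out. The deviations of mice with the same replicate number had correlations of -0.18, -0.11 and -0.09, against -0.02 to 0.12 for differently numbered mice. Deviations from a genotype mean sum to 0, so these correlations are tied to each other and cannot show whether the numbers pair mice. Age followed the replicate number in both genotypes, and the paper compared cKO mice with littermates without Cre. Pairing by litter was not tested. The replicate block gave 7 members, losing *Rgs16*, *Rgs22* and *Gnal*, and 1694 genes in all in place of 1995. *Rgs16* and *Rgs22* were also lost with age as a covariate (adjusted p = 0.0509 and 0.0651 by limma), and *Rgs16* and *Gnal* without the variance trend (0.0623 and 0.09), *Rgs22* without the filter (0.0683) and with voom (0.0534). On the deposited RPKM, 0 members, 0 other pathway genes and 0 marker genes passed by limma (2 of 30 tested members at an unadjusted p under 0.05), *Gnal* was reversed (-0.33) and *Mef2c* was at 0.02, since the lengths in these values differ between mice. Median ratio scaling shifted all fold changes by -0.0015. The depth, lowest in cKO replicate 2, limits the genes near 1 CPM, such as *Rgs22*.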
